A study of Lepidium sativum with 107 samples.

Results

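Cotyledons of germinating garden cress (Lepidium sativum, line FR14) were compared between 7 h and 13 h after sowing. The comparison used 8 of the 107 arrays of a seed germination time course, and its members were chosen by the tissue and time in the sample labels, without any measured value: 4 arrays of cotyledons cut from seeds with an intact testa at 7 h, and 4 arrays of cotyledons at 13 h. The labels of the 13 h cotyledons do not give the state of the testa, so any difference in testa state between the groups and time cannot be told apart. Seeds of all groups were one untreated genotype, sown on 6 ml of water at 24 °C in continuous light, and each cotyledon sample pooled 50 cotyledons. Groups used for comparison were cotyledons at 3 h (4 arrays) and, at 7 h from seeds named as not ruptured and at 13 h, the non-micropylar endosperm (8 arrays) and the radicle with the lower hypocotyl (8 arrays, called radicle below), with 100 pooled organs in each endosperm or radicle sample. All 13895 probe sets were tested, each keyed by the code of an Arabidopsis thaliana locus, and the roles given below are those known in Arabidopsis.

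In a crucifer seed the cotyledons hold most of the embryo's reserves, as oil bodies and storage protein vacuoles, and they enter germination with the messages of late maturation, among them those of LEA proteins and small heat shock proteins. During and after germination the cells expand, the oil is broken down through β-oxidation and the glyoxylate cycle, and proplastids or etioplasts become chloroplasts where there is light. Chloroplast formation needs nuclear genes for chlorophyll synthesis, plastid ribosomes and the photosystems, and light signalling factors such as HY5 act upstream of many of them.

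Expression was measured as log2 RMA values, in which a difference of 1 is a doubling, and 1 value was deposited per probe set and array. Array medians lay between 4.04 and 4.17. A probe set was taken as dim where its group mean was below 3.59, the 25th percentile of all group means, and a change that starts or ends there is given as a lower limit. Whether replicates came from separate sowings is not stated in the labels, and a p-value therefore reflects only scatter between arrays. In the main fit this scatter was pooled, for each probe set, over all groups of the series. The standard errors (SE) and p-values of that fit are therefore not the spread of the compared arrays alone, which can differ from it. The SD given for a group is that of its own arrays. In bulk samples, fewer cells of a type and less RNA per cell cannot be told apart.

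Over all probe sets the correlation between arrays ranged from 0.902 to 0.963 within the 7 h group, from 0.894 to 0.971 within the 13 h group and from 0.863 to 0.948 between the groups. Replicate 4 at 7 h correlated more closely with 13 h replicates 1 and 3 (r = 0.946 and 0.948) than with 7 h replicate 3 (r = 0.902). Its correlation with 7 h replicate 2 was 0.960, and with 7 h replicate 1 it was 0.934. Replicate 2 at 13 h stood apart from its own group. Both arrays lay away from their groups on the second principal component of the 12 cotyledon arrays, which held 22.6% of the variance, while the first, with 37.1%, ordered the groups by time. On the second, 7 h replicates 1 to 4 scored 17.2, 10.5, 34.5 and -18.9, so replicate 3 also lay away, on the other side. Replicate 4 and not replicate 3 was singled out after seeing the data. List counts and totals below are also given without 7 h replicate 4 and 13 h replicate 2, called the 2 arrays that stand apart. Of the 7 h arrays, replicate 4 was the closest to 13 h replicates 1 and 3, so leaving it out can favour more calls. Counts without the 2 arrays are therefore not an independent check of those with all arrays.

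**Figure D1:**
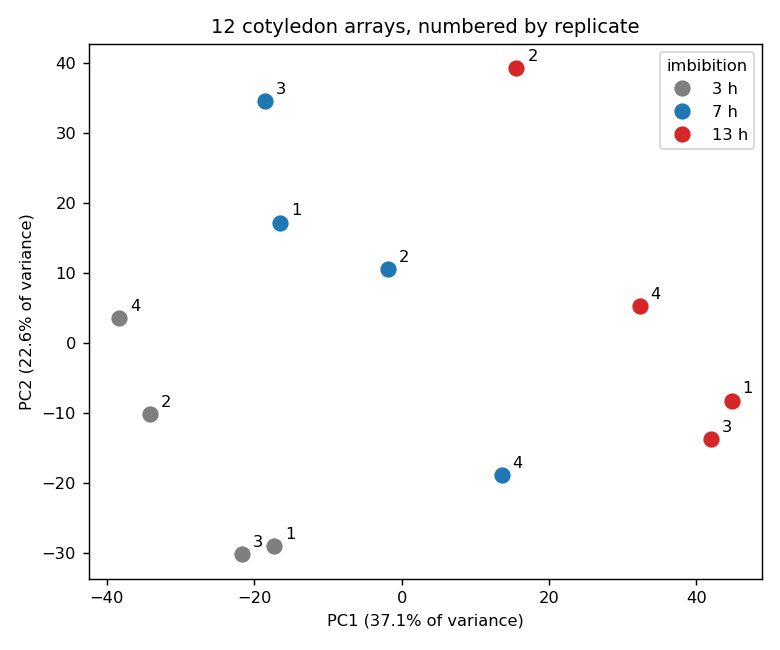
The 12 cotyledon arrays on the first 2 principal components of their log2 values (axes in component scores), coloured by time and numbered by replicate. The 13 h arrays lie to the right of the 3 h arrays, 7 h replicate 4 lies below the other 7 h arrays, and 13 h replicate 2 lies above the other 13 h arrays.

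The tissue label was checked against marker lists. The mean level of 7 cotyledon and shoot markers was 4.45 to 4.74 on the 7 h cotyledon arrays and 4.68 to 5.00 on the 13 h arrays, above the 3.43 to 4.35 of the endosperm arrays and the 4.01 to 4.30 of the radicle arrays. The list included AS1 and FIL, transcription factors of leaf polarity, which had means of 7.78 and 6.48 at 13 h. The 4 endosperm markers had a mean level of 4.56 to 4.94 at 7 h and 4.29 to 4.48 at 13 h, against 6.13 to 6.84 in the endosperm. In the radicle it was lower than in cotyledons, at 3.78 to 3.95 at 7 h and 3.73 to 3.78 at 13 h. Whether the cotyledon samples held some endosperm was not tested. The list member given next was chosen after its values were seen. EXPA2, an expansin of the endosperm, was near the dim limit in cotyledons, at 3.70 ± 0.20 (SD, n = 4) at 7 h and 3.71 ± 0.29 at 13 h, but at 9.17 and 10.31 in the endosperm. None of 9 root and 5 seed coat markers passed the test in cotyledons by limma with Benjamini-Hochberg adjustment, and 0 and 1 of them had an unadjusted p under 0.05. Without the 2 arrays that stand apart, none of the root markers and 2 of the 5 seed coat markers passed, both lower at 13 h. With all arrays 2 of the 7 cotyledon and shoot markers were higher and 1 of the 4 endosperm markers was lower, against 2 and 0 without the 2 arrays.

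Between 7 h and 13 h, 2391 of 13895 probe sets passed at an adjusted p under 0.05 (17.2%), of which 1254 were higher at 13 h (9.02%) and 1137 were lower (8.18%). A fit with 1 mean per group to all 107 arrays gave these values (limma, moderated test), and the median change over all probe sets was 0.00. Changes of more than 1 on the log2 scale were passed by 503 probe sets (3.62%), 231 higher and 272 lower. For 1728 probe sets (12.4%) the 4 arrays of one group all lay beyond the 4 of the other. The 12 listed genes with the largest change in each direction were named only among these. Lack of overlap in those genes was therefore fixed by their choice. Without the 2 arrays that stand apart, 3282 probe sets passed, 1739 higher (12.5%) and 1543 lower (11.1%). Of them, 1974 also passed in the fit with all arrays and in the same direction. List counts of this change made without the 2 arrays are to be read against 12.5% and 11.1%. Those with all arrays are to be read against 9.02% and 8.18%. The lists and their members were chosen with earlier results of these data known. These shares therefore give a scale for the counts and not a test of the lists. Of these 3282, 958 changed by more than 1, and with 3 arrays a group, where separation is easier to reach, 4789 probe sets did not overlap. When only the 8 arrays were fitted, so that the spread came from them alone, 665 passed, 287 higher and 378 lower. Of the 89 genes named below that passed with all arrays, 31 did not pass in that fit. This limit is not repeated for each of them. Leaving out only 7 h replicate 4 gave 2821, and leaving out only 7 h replicate 3 gave 1828.

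**Figure D2:**
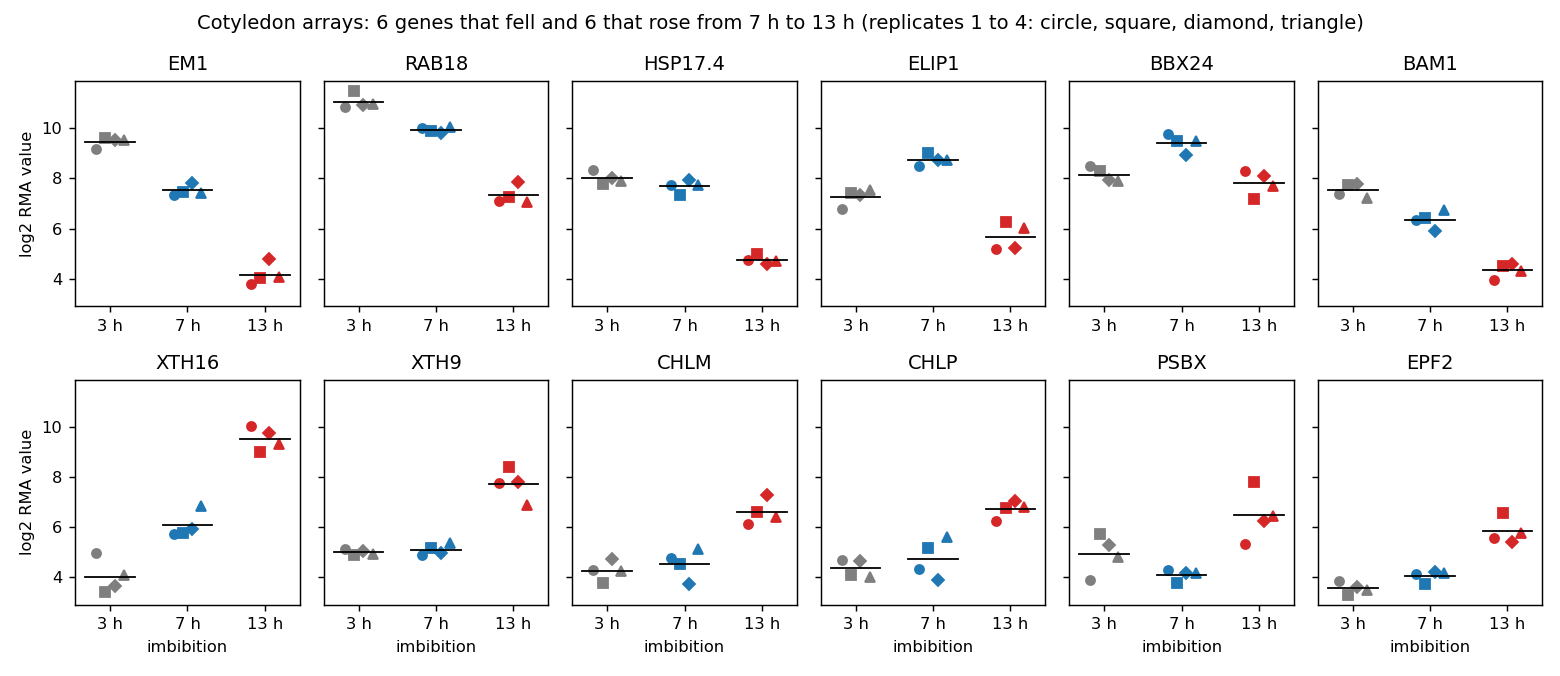
Log2 RMA value (vertical axis) of 12 genes on each cotyledon array at 3, 7 and 13 h after sowing; marker shape gives the replicate and the bar the group mean. For each of these genes the 4 values at 13 h lie wholly below (upper row) or wholly above (lower row) the 4 values at 7 h. Most of them were named only among genes without overlap, so this separation was fixed by their choice.

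Genes of chlorophyll synthesis were mostly higher at 13 h. Of 20 measured genes, 13 rose and none fell, with a median change of 0.69, against 9.02% higher among all probe sets. Without the 2 arrays that stand apart 10 rose, against 12.5% of all probe sets. CHLM, the methyltransferase that adds a methyl group to Mg-protoporphyrin, had log2 values of 4.78, 4.54, 3.76 and 5.12 at 7 h and 6.11, 6.58, 7.27 and 6.39 at 13 h. Every 13 h array was above every 7 h array, and the change was 2.04 ± 0.21 (SE; 4.11-fold; limma adjusted p = 4.12e-13).

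CHLP encodes geranylgeranyl reductase, which makes the phytol tail of chlorophyll. Its log2 values were 4.33, 5.16, 3.89 and 5.63 at 7 h and 6.26, 6.77, 7.05 and 6.82 at 13 h, a rise of 1.98 ± 0.21 (limma adjusted p = 6.22e-12). CHLI1, a subunit of the magnesium chelatase that commits protoporphyrin to chlorophyll, was tightly grouped at 7 h, with values of 4.34, 4.22, 4.14 and 4.33, and lay at 5.26, 6.06, 5.83 and 5.72 at 13 h. It rose by 1.46 ± 0.16 (2.75-fold; limma adjusted p = 1.17e-11). HEMG1, protoporphyrinogen oxidase, rose by 1.23 ± 0.24. For all these genes the groups did not overlap.

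Nuclear genes for the plastid ribosome were also mostly higher with all arrays. Among 25 such genes for ribosomal proteins, 15 rose and none fell, with a median of 0.65, and 10 rose without the 2 arrays that stand apart. PRPL1 lay at 6.84, 6.63, 6.85 and 7.19 at 7 h and at 7.87, 7.42, 7.78 and 8.04 at 13 h, a rise of 0.90 ± 0.19 (limma adjusted p = 0.000159). PRPL21 rose by 0.88 ± 0.15, with 1 value of 13 h (4.89) just under the highest of 7 h (4.92). PRPL15 and PRPL24 rose by 1.11 ± 0.31 and 0.94 ± 0.25 with overlapping groups, but not when the 2 arrays were left out, where the changes were 0.39 and 0.62 (limma adjusted p = 0.423 and 0.0996). PRPL15 differed widely within groups, from 4.72 to 7.21 at 7 h and from 5.62 to 7.98 at 13 h, and it also missed the threshold without 7 h replicate 1, 7 h replicate 4 or 13 h replicate 2 (0.82, 0.80 and 0.70). PRPL24 missed it without 7 h replicate 4 (0.68).

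Of 23 genes for plastid transcription, protein import and division, 7 rose and 1 fell, and without the 2 arrays 13 rose and 1 fell. TOC33, a receptor of the outer envelope import complex, rose by 0.77 ± 0.19. FTSZ1 and FTSZ2-1, tubulin-like proteins of the plastid division ring, rose by 0.85 ± 0.17 and 0.96 ± 0.22, each without overlap between the groups. SIG5, a sigma factor of the plastid polymerase that responds to blue light and stress, was the member that fell, from values of 5.70, 5.07, 4.90 and 5.23 to 3.60, 3.66, 4.24 and 4.13 (-1.32 ± 0.20; limma adjusted p = 2.41e-07).

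The photosystem genes were uneven. Of 33 measured members 7 rose (9.02% of all probe sets did) and none fell, with a median of 0.08. Without the 2 arrays that stand apart 5 rose and 4 fell (12.5% and 11.1% of all probe sets). PSBX, a small subunit of photosystem II, had the largest rise, from 4.29, 3.78, 4.16 and 4.17 at 7 h to 5.34, 7.82, 6.26 and 6.46 at 13 h. The highest 13 h value was that of replicate 2, but each 13 h array exceeded each 7 h array, and the change was 2.37 ± 0.22 (5.17-fold; limma adjusted p = 8.16e-15).

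PSAF, a subunit of photosystem I, was almost constant at 7 h, between 3.98 and 4.01, and reached 4.96, 5.83, 5.24 and 5.13 at 13 h (1.29 ± 0.17). ATPC1, the gamma subunit of the chloroplast ATP synthase, rose by 1.13 ± 0.13, and PETC, the Rieske protein of the cytochrome b6f complex, by 1.03 ± 0.17. PSAN, another photosystem I subunit, turned on 1 array: replicate 2 at 13 h had 6.88, while the other 13 h arrays had 3.75, 4.68 and 4.62. Its change of 1.19 ± 0.24 became 0.56 without that array (limma adjusted p = 0.0235) and 0.38 without both arrays (limma adjusted p = 0.146). In the Calvin cycle 2 of 12 genes rose with all arrays (9.02% of all probe sets did) and 2 rose without the 2 arrays (12.5%). These were the plastid aldolases FBA2 (1.51 ± 0.20) and FBA1 (0.92 ± 0.25) in the fit with all arrays.

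Carotenoid and plastid isoprenoid synthesis had 5 of 17 genes higher and none lower, and 6 higher and 1 lower without the 2 arrays. DXS and DXR catalyse the opening steps of the plastid isoprenoid pathway, and they rose by 0.61 ± 0.15 and 1.29 ± 0.18. The 7 h values of DXR were 5.49, 5.25, 5.54 and 5.67, all below the 13 h values of 6.52, 6.84, 6.96 and 6.78. NPQ1, the violaxanthin de-epoxidase that protects leaves from excess light, rose by 1.31 ± 0.23 with overlapping groups, and by 2.05 without the 2 arrays.

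Light signalling genes fell or did not pass. Of 27 measured members 8 fell (8.18% of all probe sets did) and none rose. Without the 2 arrays 7 fell and 2 rose (11.1% and 12.5% of all probe sets). ELIP1, an early light-induced protein of the thylakoid, lay at 8.48, 8.99, 8.74 and 8.74 at 7 h and at 5.17, 6.26, 5.23 and 6.01 at 13 h. The groups were separated by more than 2 units, and the change was -3.07 ± 0.25 (8.41-fold lower; limma adjusted p = 1.24e-17).

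BBX24, a B-box protein that represses HY5 activity, fell from 9.74, 9.47, 8.92 and 9.49 to 8.31, 7.18, 8.08 and 7.70 (-1.59 ± 0.20). HY5, the bZIP factor that promotes greening, fell by 1.31 ± 0.21 (limma adjusted p = 6.17e-07), but its groups overlapped: the 7 h values were 8.33, 8.26, 8.39 and 7.09, and the 13 h values 6.06, 7.22, 6.43 and 7.10. The low 7 h value was replicate 4, and HY5 did not pass when only the 8 arrays were fitted. SOM, a zinc finger protein that restrains germination in the dark, fell by 1.88 ± 0.19 without overlap. HYH, the close homologue of HY5, did not pass (-0.24 ± 0.21). None of the 14 circadian clock genes passed by limma, 3 had an unadjusted p under 0.05 (1 higher and 2 lower), and without the 2 arrays 3 were higher and 1 was lower.

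**Figure D3:**
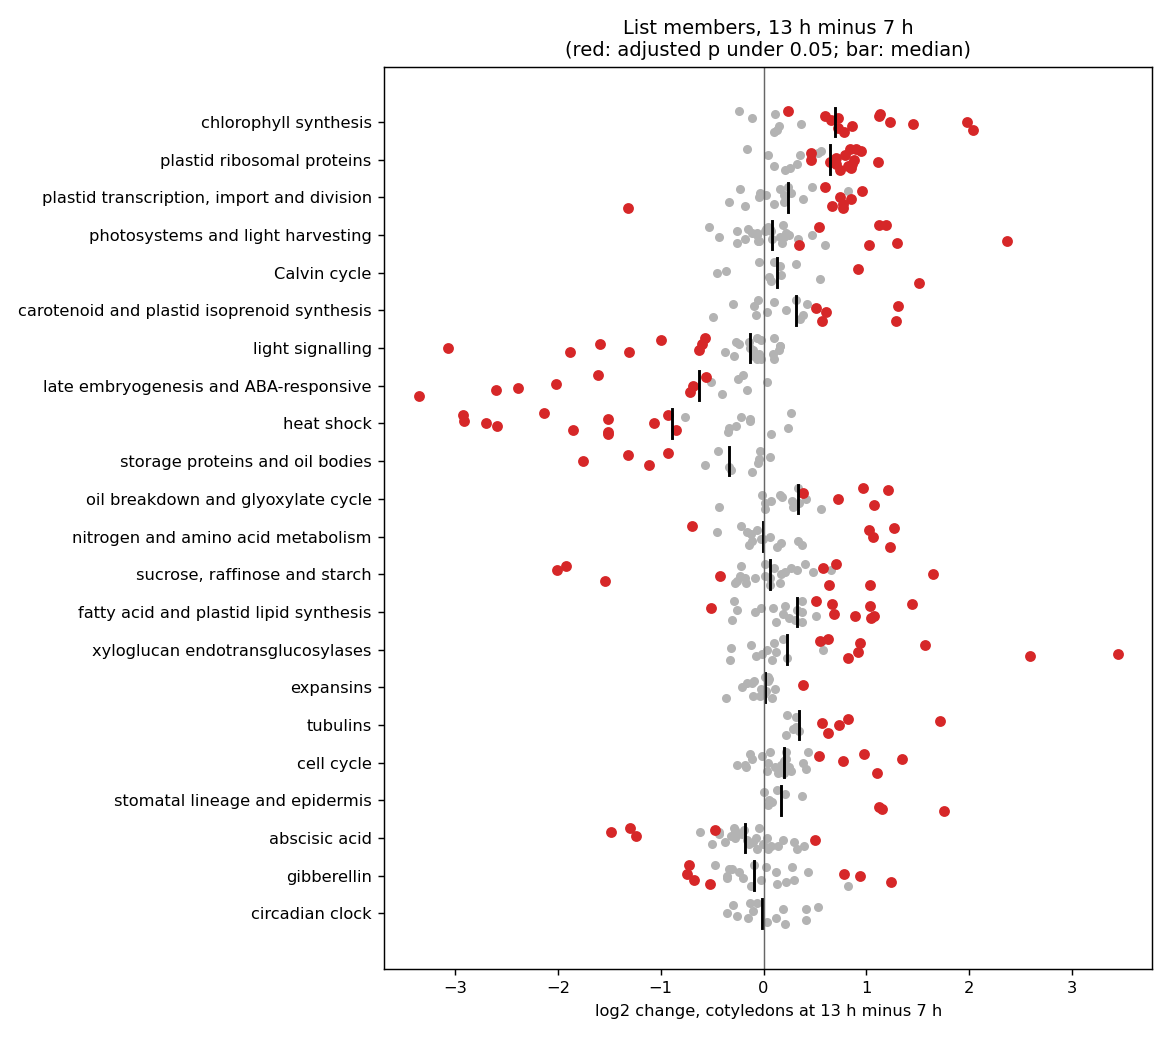
Log2 change from 7 h to 13 h (horizontal axis) of each measured member of 22 gene lists in cotyledons; red points passed at an adjusted p under 0.05, grey points did not, and the bar is the list median. Red points lie on the higher side for the plastid ribosomal proteins and on the lower side for the heat shock and late embryogenesis lists.

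Late embryogenesis genes were mostly lower at 13 h. Of 14 genes for late embryogenesis and ABA-responsive proteins, 8 fell and none rose, with a median of -0.63, and 9 fell without the 2 arrays. EM1, a LEA protein of the desiccation phase, lay at 7.35, 7.47, 7.82 and 7.42 at 7 h and at 3.79, 4.02, 4.78 and 4.08 at 13 h. No array of one time overlapped those of the other, and the change was -3.35 ± 0.33 (10.2-fold lower; limma adjusted p = 2.59e-13).

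RAB18, a dehydrin, fell from 9.99, 9.88, 9.80 and 10.03 to 7.11, 7.25, 7.87 and 7.07 (-2.60 ± 0.22). EM6, the second Em protein, fell by 2.39 ± 0.26, and its lowest 7 h value, 5.95, was that of replicate 4. LEA7 fell by 2.02 ± 0.32 and was the most scattered of these at 13 h, from 5.41 to 7.94, and fell by 2.64 without the 2 arrays. It did not pass when only the 8 arrays were fitted. PER1, a peroxiredoxin of dry seeds, fell from 7.64, 7.61, 8.01 and 7.40 to 5.50, 5.81, 5.66 and 5.77 (-1.98 ± 0.26).

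In the heat shock list 12 of 22 members fell and none rose, the median was -0.89, and without the 2 arrays 11 fell and 1 rose. HSP17.4, a cytosolic small heat shock protein that also accumulates in maturing seeds, lay at 7.72, 7.34, 7.94 and 7.75 at 7 h and at 4.75, 4.98, 4.61 and 4.73 at 13 h. The 13 h arrays were close to each other and far below the 7 h arrays (-2.92 ± 0.23; 7.58-fold lower; limma adjusted p = 1.24e-17). HSP17.6C, HSP15.7, HSP23.6 and HSP17.6II, further small heat shock proteins, fell, with changes of -2.91 ± 0.39, -2.70 ± 0.26, -2.59 ± 0.20 and -2.13 ± 0.36. In each the 4 arrays of 13 h lay below the 4 of 7 h.

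Of 13 measured genes for storage proteins and oil body proteins 4 fell and none rose, with a median of -0.34, the same count without the 2 arrays, and 5 were dim at both times. OLEO4, an oleosin that coats oil bodies, fell from 6.51, 6.82, 6.68 and 6.05 to 4.63, 5.08, 4.71 and 4.62 (-1.75 ± 0.21). OLEO1 fell by at least 1.32 ± 0.22, since it was dim at 13 h. CRA1, a cruciferin storage globulin, was already at 4.39 ± 0.39 (SD, n = 4) at 7 h and did not pass (-0.57 ± 0.24; limma adjusted p = 0.0895), although it passed with array weights (-0.72). TIP3;1, a water channel of the storage vacuole, fell by 1.16 ± 0.25 and stayed bright, at 7.48, 8.37, 8.30 and 7.67 at 13 h.

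Of 19 genes of oil breakdown and the glyoxylate cycle 5 rose with all arrays and none fell, with a median of 0.34, and 11 rose without the 2 arrays that stand apart. KAT2, the thiolase that ends each round of β-oxidation, went from 7.35, 7.69, 7.26 and 7.77 to 8.98, 8.72, 8.82 and 8.40, with all 13 h arrays above the 7 h arrays (1.21 ± 0.16; limma adjusted p = 1.03e-08). KAT5, a second thiolase, rose by 1.08 ± 0.18 from close to the dim limit. The glyoxylate cycle enzyme isocitrate lyase, ICL, rose by 0.73 ± 0.20 and the aconitase ACO3 by 0.97 ± 0.23, both with overlapping groups. ICL did not pass without 7 h replicate 3 or 13 h replicate 1 (changes of 0.56 and 0.52). Without the 2 arrays the rise of ACO3 was 1.76.

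Of 19 genes of nitrogen and amino acid metabolism 4 rose and 1 fell (9.02% and 8.18% of all probe sets did). Without the 2 arrays 4 were higher and none lower (12.5% and 11.1%). GLN1;3 and GLN1;2, cytosolic glutamine synthetases, rose by 1.27 ± 0.17 and 1.07 ± 0.22, and the asparagine synthetase ASN2 by 1.23 ± 0.22. The 7 h values of ASN2 were 6.52, 6.80, 6.57 and 6.73 and its 13 h values 8.21, 7.39, 7.94 and 8.00, without overlap. PPDK, which returns pyruvate to phosphoenolpyruvate, rose by 1.02 ± 0.20. CATHB3, a cathepsin B-like protease, and GVPE, a vacuolar processing enzyme, were the risers among 11 proteases, by 0.81 ± 0.19 and 0.61 ± 0.16, and 2 of the 11 rose without the 2 arrays.

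Among 29 genes of sucrose, raffinose and starch metabolism 5 rose and 4 fell, and these counts were the same without the 2 arrays. Of all probe sets 9.02% rose and 8.18% fell, and 12.5% and 11.1% without the 2 arrays. GBSS1, the granule-bound starch synthase that makes amylose, lay at 3.85, 4.22, 3.99 and 4.30 at 7 h and at 5.84, 5.28, 5.92 and 5.94 at 13 h (1.65 ± 0.18). BAM1, a plastid β-amylase that degrades starch, moved the other way, from 6.35, 6.42, 5.90 and 6.72 to 3.96, 4.53, 4.58 and 4.29 (-2.01 ± 0.18; limma adjusted p = 5.59e-15). Neither gene's groups overlapped. GOLS1, the galactinol synthase that feeds raffinose synthesis, fell by 1.92 ± 0.27. SPSB, a sucrose phosphate synthase, fell by at least 1.54 ± 0.23 to a dim level.

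Fatty acid and plastid lipid synthesis had 8 of 25 genes higher and 1 lower, with a median of 0.32, and 9 higher and 1 lower without the 2 arrays. MOD1, the enoyl-ACP reductase of fatty acid elongation, rose from 3.93, 3.85, 4.52 and 4.35 to 5.57, 5.21, 5.90 and 5.77 (1.45 ± 0.24). SSI2, a stearoyl-ACP desaturase, rose by 1.08 ± 0.18, KAS1, a ketoacyl-ACP synthase, by 1.03 ± 0.22, and FAD3, the desaturase that makes linolenic acid, by at least 1.05 ± 0.19. CAC2, the biotin carboxylase subunit of plastid acetyl-CoA carboxylase, rose by 0.69 ± 0.24, but did not pass without 7 h replicate 1, 13 h replicate 1 or 13 h replicate 4 (changes of 0.41, 0.66 and 0.55).

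Cell wall genes were led by the xyloglucan endotransglucosylases, which cut and rejoin the xyloglucan chains that tether cellulose. Of 21 measured members 8 rose and none fell, and 7 rose without the 2 arrays. XTH16 had the largest rise of all listed genes in the fit with all arrays, from 5.73, 5.78, 5.94 and 6.86 at 7 h to 10.02, 8.99, 9.75 and 9.31 at 13 h. The groups were more than 2 units apart (3.44 ± 0.35; 10.9-fold; limma adjusted p = 4e-13), and the highest 7 h value was that of replicate 4.

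XTH9 rose by 2.60 ± 0.28, from 4.91, 5.16, 4.97 and 5.38 to 7.74, 8.38, 7.78 and 6.89. XTH17 was dim at 7 h and rose by at least 1.57 ± 0.25. Among the expansins, which loosen walls without cutting them, EXPA20 was the 1 of 18 that rose (0.38 ± 0.14; limma adjusted p = 0.0488), and 7 were dim at both times. The EXPA20 call was lost without any one of 6 arrays (replicates 1 to 3 of each time, changes of 0.31 to 0.42), and without the 2 arrays no expansin rose. Of 8 cellulose synthesis genes 1 rose, the endoglucanase KOR1 (0.76 ± 0.21), and 5 rose without the 2 arrays. KOR1 did not pass when only the 8 arrays were fitted. Among all probe sets 9.02% rose with all arrays and 12.5% without the 2 arrays, the shares for both of these lists.

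Tubulin genes were higher in 5 of 11 cases and lower in none, and in 8 without the 2 arrays. TUA4 ranged widely, from 5.76 to 8.13 at 7 h and from 7.37 to 9.76 at 13 h (1.72 ± 0.38), and TUB4 rose by 0.82 ± 0.24, but did not pass without 7 h replicate 1 or 13 h replicate 1 (0.71 and 0.60). The rise of TUA4 was 2.54 without the 2 arrays. Of 27 cell cycle genes 3 rose without the 2 arrays (12.5% of all probe sets did). With all arrays 5 rose (9.02% of all probe sets did) and none fell, and 10 were dim at both times. Among the risers were RBR1, the retinoblastoma homologue that holds back S phase (at least 1.34 ± 0.27), RNR1, a subunit of ribonucleotide reductase (1.10 ± 0.20), and MCM4 of the replicative helicase (at least 0.98 ± 0.25). The groups overlapped in all 3. The helicase subunits MCM2, MCM5 and MCM7 did not pass, with changes of 0.04 ± 0.22, 0.18 ± 0.21 and 0.20 ± 0.23.

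Of 10 genes of the stomatal lineage and epidermis 3 rose and none fell, against 2 without the 2 arrays. EPF2, a secreted peptide that limits the number of cells entering the stomatal lineage, lay at 4.12, 3.75, 4.23 and 4.19 at 7 h and at 5.56, 6.58, 5.42 and 5.77 at 13 h. The groups were more than 1 unit apart (1.76 ± 0.14; 3.39-fold; limma adjusted p = 4.9e-17).

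PDF1, an epidermal protein, rose by 1.15 ± 0.26 with 13 h values of 5.58, 3.99, 4.16 and 5.46. STOMAGEN, a peptide from the mesophyll that promotes stomata, rose by 1.12 ± 0.21 with a value of 7.13 on 13 h replicate 2, and by 0.43 without the 2 arrays (limma adjusted p = 0.0916). Of 21 genes of leaf polarity and growth 3 rose and none fell, with all arrays and without the 2 arrays. Among all probe sets 9.02% rose with all arrays and 12.5% without the 2 arrays. AS1 rose from 6.31, 6.03, 6.01 and 6.51 to 8.07, 6.68, 8.47 and 7.90 (1.57 ± 0.24) and FIL by 0.79 ± 0.21, which became 0.51 without 7 h replicate 1 (limma adjusted p = 0.107). GRF5, a growth regulating factor of leaves, rose by 0.92 ± 0.31 with overlapping groups, and did not pass without any one of 7 h replicates 1, 2 and 3 or 13 h replicates 1 and 3 (changes of 0.53 to 0.93).

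Of 11 genes of ribosome assembly 5 rose and none fell, and 6 rose without the 2 arrays. APUM23, which takes part in the processing of ribosomal RNA, rose by 1.18 ± 0.27, and EBP1, a nucleolar regulator of growth, by 0.90 ± 0.19. Of 23 genes for cytosolic ribosomal proteins 3 rose (9.02% of all probe sets did) and 7 without the 2 arrays (12.5%). The largest of the 3 rises was that of RPP0A, a protein of the ribosomal stalk (1.03 ± 0.21).

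Antioxidant enzymes and NADPH oxidases had 7 of 20 members higher and 1 lower (9.02% and 8.18% of all probe sets). Without the 2 arrays 8 were higher and 2 lower (12.5% and 11.1%). PRXQ, a chloroplast peroxiredoxin, rose from 4.90, 5.13, 5.08 and 4.51 to 5.96, 6.25, 6.82 and 6.32 (1.43 ± 0.23), while the seed peroxiredoxin PER1 fell, as given above. APX1 and APX3, ascorbate peroxidases of the cytosol and the peroxisome membrane, rose by 1.28 ± 0.21 and 0.98 ± 0.16. In flavonoid synthesis 1 of 10 genes rose and 1 fell, with all arrays and without the 2 arrays, and the riser was DFR, dihydroflavonol reductase (1.11 ± 0.20). ZAT12, a zinc finger protein of stress responses, fell by 1.95 ± 0.30, the single call in a list of 9 genes for touch, wound and defence responses, and also the single call without the 2 arrays.

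Hormone genes moved in small numbers and in both directions. Of 32 genes of abscisic acid metabolism and signalling 1 rose and 4 fell (9.02% and 8.18% of all probe sets did). Without the 2 arrays 5 fell (11.1%). HAI3, a phosphatase that damps the abscisic acid signal, fell by 1.48 ± 0.30. CYP707A3 and CYP707A2, the hydroxylases that inactivate abscisic acid, fell by 1.30 ± 0.27 and 1.24 ± 0.26. CYP707A2 is also the 1 endosperm marker that passed, its groups overlapped, and its change was -0.68 without the 2 arrays (limma adjusted p = 0.0711).

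Of 25 gibberellin genes 3 rose and 4 fell (9.02% and 8.18% of all probe sets did). Without the 2 arrays 3 rose and 3 fell (12.5% and 11.1%). The gibberellin-induced peptide gene GASA1 rose from 4.08, 3.79, 3.94 and 3.83 to 5.83, 5.12, 4.90 and 4.75 (1.24 ± 0.20), and KAO2, an oxidase of gibberellin synthesis, by 0.93 ± 0.18. RGA, a DELLA repressor, fell by 0.75 ± 0.21 with overlapping groups, and its change was -0.36 without the 2 arrays (limma adjusted p = 0.284), -0.51 without 7 h replicate 4 and -0.59 without 13 h replicate 2, none of which passed. In auxin response 3 of 13 genes fell, also without the 2 arrays, led by the early auxin-induced gene IAA2 (-1.39 ± 0.18).

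Loci of the mitochondrial genome formed a large falling group. Of 47 probe sets 27 fell, none rose, and the median change was -0.85, with 27 also falling without the 2 arrays. Their changes ran from -2.90 to 0.18, the arrays of the 2 times did not overlap for 26, and 13 were dim at both times. The median level of the 47 loci was 5.85 to 7.25 on the 3 h arrays, 4.62 to 5.33 on the 7 h arrays and 3.71 to 4.15 on the 13 h arrays. The last range overlaps the 3.87 to 4.21 of the 3 arrays of dry cotyledons with their non-micropylar endosperm. In the endosperm 20 of the loci fell from 7 h to 13 h (11.9% of all probe sets did) and in the radicle 21 (9.97%). None rose in either. The change in cotyledons was more negative than that in the endosperm for 3 of the 47 loci, against 4.89% of all probe sets. From that in the radicle it differed for 0 loci by limma, with 11 at an unadjusted p under 0.05. It differed without the 2 arrays for 8 loci from each of these tissues, all more negative in cotyledons. The labelling kit primes on poly(A) tails, so these values are not a measure of total mitochondrial RNA.

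**Figure D4:**
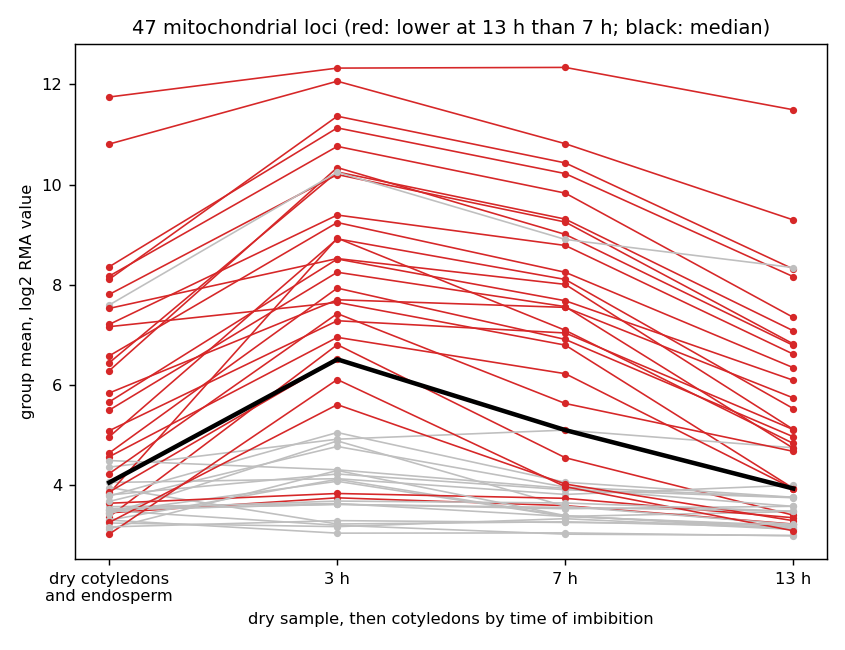
Group mean log2 RMA value (vertical axis) of 47 mitochondrial loci in dry cotyledons with non-micropylar endosperm and in cotyledons at 3, 7 and 13 h; red lines are the 27 loci that fell from 7 h to 13 h and the black line is the median. The median rises from the dry samples to 3 h and is lower at each later time.

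The interval was set against the preceding one, from 3 h to 7 h in cotyledons, in which 1887 probe sets passed (13.6%), and 2024 without the 2 arrays. Both intervals share the 7 h arrays, so their values are given side by side. The change differed between the intervals for 1523 probe sets (11%), 759 more positive and 764 more negative from 7 h to 13 h. Without the 2 arrays it differed for 2333, 1177 more positive and 1156 more negative. Chlorophyll synthesis had 4 genes lower and none higher from 3 h to 7 h (6.97% and 6.61% of all probe sets), against 13 higher in the later interval, and the difference passed for 10 of 20, all more positive. Plastid ribosomal proteins had 7 lower and none higher in the earlier interval, and the difference passed for 12 of 25. In the light signalling list 5 genes were higher and 2 lower from 3 h to 7 h, and the difference passed for 8, all more negative. Without the 2 arrays the difference passed for 10, 9 and 8 members of these lists, in the same directions.

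ELIP1 rose by 1.47 ± 0.25 from 3 h to 7 h before its fall of 3.07, a difference of -4.54 ± 0.42 (limma adjusted p = 6.3e-14). BBX24 and HY5 had likewise risen, by 1.27 ± 0.20 and 1.55 ± 0.21, and both differed by -2.86 (HY5 by -3.48 without 7 h replicate 4). HYH rose by 2.83 ± 0.21 in the earlier interval and was level in the later one at 5.95 ± 0.33 (SD, n = 4), a difference of -3.07 ± 0.36. HSP15.7 rose by 1.17 ± 0.26 and then fell (difference -3.87 ± 0.45), whereas HSP17.6C had a change of -0.20 ± 0.39 before its fall (difference -2.71 ± 0.68).

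PSBX fell by 0.84 ± 0.22 from 3 h to 7 h and PETC by 1.56 ± 0.17 before they rose, with differences of 3.21 ± 0.38 and 2.59 ± 0.29. The mean of PSBX was 5.70 in the dry cotyledons with endosperm, 4.94 at 3 h, 4.10 at 7 h and 6.47 at 13 h. FBA1 and CAC2 also fell and then rose, with differences of 2.54 ± 0.43 and 2.46 ± 0.42. CRA1 fell by 3.14 ± 0.24 in the earlier interval, from 7.53 ± 0.44 (SD, n = 4) at 3 h, and much less afterwards (difference 2.57 ± 0.41). XTH9 had a change of 0.10 ± 0.28 from 3 h to 7 h (difference 2.49 ± 0.49).

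The same 2 times were available for the non-micropylar endosperm, the reserve tissue around the cotyledons, and for the radicle, which grows out to complete germination. These comparisons share no arrays with the cotyledons. Of the 1254 probe sets higher in cotyledons, 412 were also higher in the endosperm (10.3% of all probe sets were), which is 32.9% of the cotyledon set and 28.9% of the endosperm set, and 78 were lower there (6.22%). The radicle shared 434 of them, 34.6% of the cotyledon set and 28.4% of its own, where 11% of all probe sets were higher. Of the 1137 lower in cotyledons, 414 (36.4%, and 25.1% of the endosperm set) were lower in the endosperm and 551 (48.5%, and 39.8% of the radicle set) in the radicle, against 11.9% and 9.97% lower among all probe sets. In the fit without the 2 arrays 412 of 1739 higher probe sets were shared with the endosperm and 553 with the radicle (23.7% and 31.8% of the cotyledon set, and 28% and 35.1% of the other). Of 1543 lower ones 372 and 594 were shared (24.1% and 38.5%, and 21.8% and 40.5% of the other). In all, 3075 probe sets passed in the endosperm (22.1%) and 2914 in the radicle (21%).

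The change differed between cotyledons and endosperm for 1686 probe sets (12.1%), and for 2936 without the 2 arrays. ELIP1 fell by 2.55 ± 0.35 more in cotyledons, since its endosperm means were 6.60 and 6.08. EM6 also differed (-2.26 ± 0.37), but it was dim in the endosperm at both times. PSBX, EPF2 and CHLP rose more in cotyledons, by 2.02 ± 0.31, 1.61 ± 0.20 and 1.28 ± 0.30, and EPF2 was dim in the endosperm at both times.

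The endosperm moved further in other genes. FAD3 and GLN1;2 rose there by 3.06 ± 0.19 and 2.86 ± 0.22, more than in cotyledons (differences of -2.01 ± 0.28 and -1.79 ± 0.32). FAD3 was dim in cotyledons at 7 h, so the size of its difference is uncertain. GASA6, a gibberellin-induced peptide gene, rose by 2.71 ± 0.32 in the endosperm and did not pass in cotyledons, except without 13 h replicate 3 (1.03; difference with all arrays -1.89 ± 0.46). The water channel TIP3;1 fell by 2.94 ± 0.25 there, the LEA protein ECP63 by 3.14 ± 0.21 and the nitrite reductase NIR1 by 2.45 ± 0.19, with differences of 1.79 ± 0.35, 2.63 ± 0.30 and 2.00 ± 0.27. RNR1 fell in the endosperm by 0.90 ± 0.20, against its rise in cotyledons (difference 2.00 ± 0.28). ZAT12 fell more in cotyledons (difference -1.76 ± 0.42).

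XTH16 rose in the endosperm by 3.15 ± 0.35, and its difference of 0.29 ± 0.49 from the rise in cotyledons did not pass (limma adjusted p = 0.779). AS1 rose there by 1.86 ± 0.24 (difference -0.29 ± 0.35, adjusted p = 0.662). The mean level of the 7 cotyledon and shoot markers in the endosperm, which include AS1, was 3.43 to 3.46 at 7 h and 3.58 to 4.35 at 13 h. The part of these markers in the endosperm values was not tested.

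**Figure D5:**
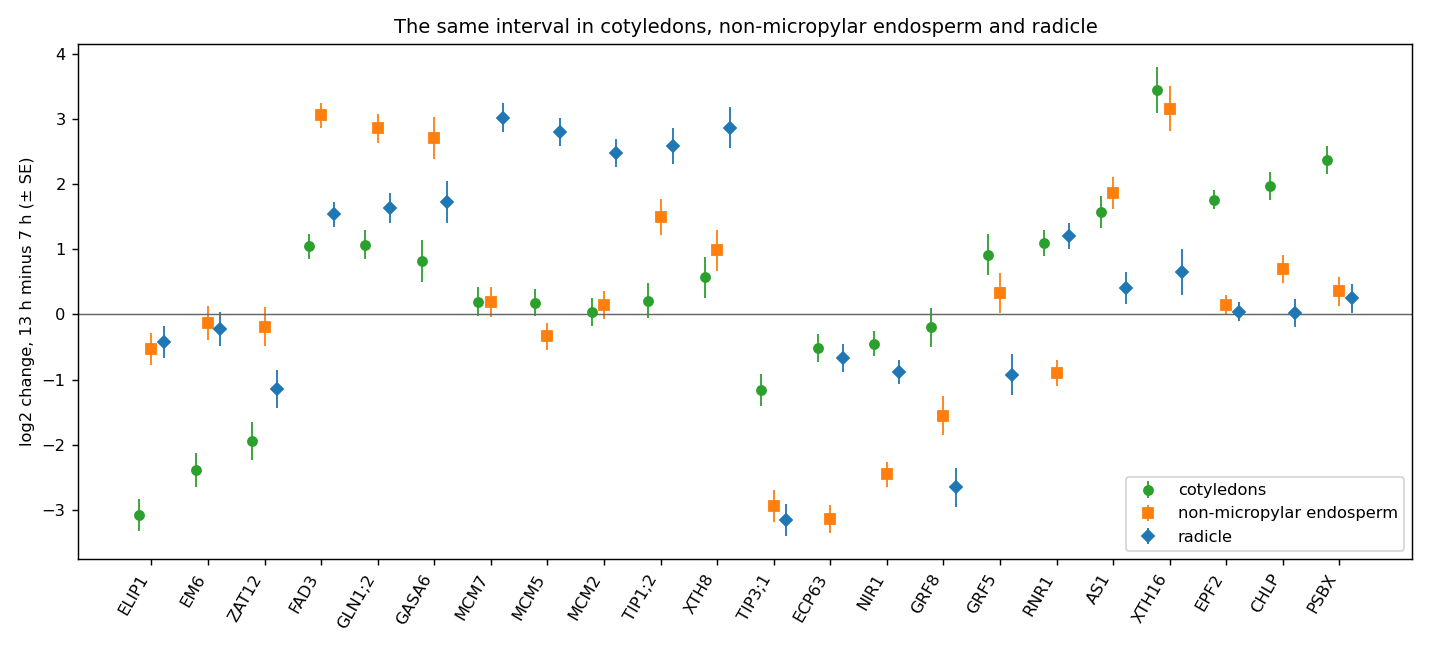
Log2 change from 7 h to 13 h (vertical axis, with standard error bars) of 22 genes in cotyledons, non-micropylar endosperm and radicle. ELIP1 and EM6 are lowest in cotyledons, MCM2, MCM5 and MCM7 are highest in the radicle, and XTH16 is high in cotyledons and endosperm. EM6 and EPF2 were dim in endosperm and radicle, and MCM2 and MCM7 in cotyledons.

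Against the radicle the change differed for 926 probe sets (6.66%). Without the 2 arrays it differed for 1561, 896 more positive and 665 more negative in cotyledons. Of 27 cell cycle genes the difference passed for 6, all more negative in cotyledons, with all arrays and without the 2 arrays, against 3.09% more negative among all probe sets. Of these, the helicase genes MCM7, MCM5 and MCM2 rose in the radicle by 3.02 ± 0.23, 2.80 ± 0.21 and 2.48 ± 0.22, and the change in cotyledons was lower, with differences of -2.82 ± 0.32, -2.62 ± 0.30 and -2.44 ± 0.31 (limma adjusted p between 2.63e-10 and 5.52e-09). These 3 were named for the size of that difference. MCM7 and MCM2 were dim in cotyledons at both times.

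TIP1;2, a vacuolar water channel, and XTH8 rose in the radicle by 2.58 ± 0.27 and 2.87 ± 0.31 (differences -2.37 ± 0.38 and -2.30 ± 0.44). In the other direction the growth regulating factor gene GRF8 fell in the radicle (-2.65 ± 0.30) and did not pass in cotyledons, where it was bright at 10.52, 10.25, 10.95 and 10.78 at 13 h (difference 2.45 ± 0.42). GRF5 differed by 1.84 ± 0.44 (2.58 without the 2 arrays) and AS1 by 1.17 ± 0.35. The AS1 difference did not pass without any one of cotyledon replicate 3 of either time, radicle replicate 1 at 7 h or radicle replicate 2 at 13 h (0.94 to 1.10). XTH16 rose more in cotyledons by 2.79 ± 0.49, CHLP by 1.96 ± 0.30, PSBX by 2.12 ± 0.31 and EPF2 by 1.72 ± 0.20, with EPF2 dim in the radicle. TIP3;1 fell less in cotyledons (difference 1.99 ± 0.35), and ELIP1 and EM6 fell more (differences -2.65 ± 0.35 and -2.17 ± 0.37, with EM6 dim in the radicle at both times).

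Further list counts followed for the difference between cotyledons and radicle. It passed for 9 of 20 chlorophyll synthesis genes, all more positive in cotyledons, and for 12 more positive and 1 more negative of 25 plastid ribosomal proteins, against 3.57% more positive and 3.09% more negative among all probe sets. These counts were 7, and 9 and 1, without the 2 arrays, where 896 of 13895 probe sets were more positive and 665 more negative. Of 17 carotenoid and plastid isoprenoid genes 6 were more positive, and 7 without the 2 arrays. Of 29 genes of sucrose, raffinose and starch metabolism 2 were more positive and 4 more negative, and 3 in each direction without the 2 arrays. The list of plastid transcription, import and division depended on these arrays, with 3 of 23 more positive and 1 more negative, but 13 more positive without them. In ribosome assembly 0 of 11 passed by limma, 4 had an unadjusted p under 0.05, and 5 were more positive without the 2 arrays. In the heat shock list the difference passed for 1 gene in each direction, also without the 2 arrays, and 12 members fell in the radicle too (9.97% of all probe sets).

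Against the endosperm, where 7.24% of all probe sets were more positive and 4.89% more negative in cotyledons, the largest shares were in other lists. Without the 2 arrays 1673 of 13895 probe sets were more positive and 1263 more negative. In ribosome assembly 8 of 11 genes were more positive, with all arrays and without the 2 arrays, and 5 of the 11 fell in the endosperm. In plastid transcription, import and division 11 of 23 were more positive and 1 more negative, against 14 and 1 without the 2 arrays, and 8 fell in the endosperm. The heat shock list had 6 of 22 more positive and 3 more negative (7 and 3 without the 2 arrays), and nitrogen and amino acid metabolism 3 of 19 and 5 (4 and 4). Chlorophyll synthesis had 5 of 20 and plastid ribosomal proteins 2 of 25 more positive, against 6 and 4 without the 2 arrays, and none more negative.

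The probe sets outside the gene lists with the largest non-overlapping changes are known here by their locus codes alone. AT3G12320 fell from 7.87, 8.03, 7.29 and 7.24 to 3.90, 4.43, 3.95 and 3.56 (-3.65 ± 0.22; limma adjusted p = 4.03e-24), and AT3G44450 by 2.88 ± 0.36 after a rise of 2.19 ± 0.36 from 3 h to 7 h. AT3G17790 rose from 4.59, 4.61, 4.77 and 4.96 to 7.80, 6.71, 7.58 and 7.14 (2.57 ± 0.18), and it also rose in the endosperm, by 3.20 ± 0.18. AT4G34970 rose by 2.57 ± 0.28.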

How the data were processed

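Per the submitters' processing notes, the authors deposited log2 values made by RMA with the affy package, 1 per probe set and array; no version and no probe design is given by the sources used. From these, limma was fitted to all 107 arrays with 1 mean per group (limma 3.58.1 in R 4.3.3), with moderated variances (80 residual and 6.04 prior degrees of freedom) and Benjamini-Hochberg adjustment over 13895 probe sets, at 0.05. The fit was tested on simulated data. The number of arrays limits the precision. Gene symbols came from hand-written lists (41 lists, 879 loci, 685 measured), not from an annotation of the array, and the members and lists were chosen with earlier results of these data known. Genes were named by rule: the 12 listed genes with the largest changes in each direction that passed without overlap between groups, up to 4 passing members of each list described, up to 6 in each direction of each difference, members described as not passing, and 2 unlisted codes in each direction; EXPA2 and further values of genes already named were added after their values were seen. Alternatives were trend and robust moderation, removal of dim probe sets, centring on brighter probe sets, quantile normalization, array weights, a replicate block, the compared arrays alone, and leaving out each array; leaving out both arrays that stand apart was added after seeing the data.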

Additional observations from a re-analysis of the deposited data

Results flagged for a closer look

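Of 202 groups of 4 arrays looked at for the genes named, 5 held an array whose gap to the next value took up nearly the whole range of its group, and chance gives about 1 in 20 such groups. They were CATHB3 at 7 h, where replicate 1 had 7.81, XTH8 at 7 h, where replicate 3 had 3.68, and GBSS1 at 13 h, where replicate 2 had 5.28. The others were HY5 and PSAN at 7 h, where replicate 4 had 7.09 and 3.27. Replicate 4 at 7 h and replicate 2 at 13 h are the 2 arrays that stand apart over all probe sets.

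The change from 7 h to 13 h in cotyledons differed from that in the non-micropylar endosperm by the test of the difference for 13 of the 15 genes looked at, most of which were named for the size of that difference, so this share was fixed by their choice. It was more positive in cotyledons by 2.63 for ECP63, 2.02 for PSBX, 2.00 for NIR1, 2.00 for RNR1, 1.79 for TIP3;1, 1.61 for EPF2 and 1.28 for CHLP. It was more negative for ELIP1 (-2.55), EM6 (-2.26), FAD3 (-2.01, dim in cotyledons at 7 h), GASA6 (-1.89), GLN1;2 (-1.79) and ZAT12 (-1.76). EM6 and EPF2 were dim in the endosperm at both times, so the size of their differences is uncertain.

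Against the radicle the difference passed for 15 of 15 genes looked at, most of which were likewise chosen for its size. It was more positive in cotyledons by 2.79 for XTH16, 2.45 for GRF8, 2.12 for PSBX, 1.99 for TIP3;1, 1.96 for CHLP, 1.84 for GRF5, 1.72 for EPF2 and 1.17 for AS1. It was more negative for MCM7 (-2.82), ELIP1 (-2.65), MCM5 (-2.62), MCM2 (-2.44), TIP1;2 (-2.37), XTH8 (-2.30) and EM6 (-2.17). EM6 and EPF2 were dim in the radicle, and MCM7 and MCM2 in cotyledons, so the size of these differences is uncertain.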

How the results depend on the processing

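Of 89 named genes past the threshold from 7 h to 13 h, no call reversed in any setting run, 58 stayed past it when only the 8 arrays were fitted, 28 when a replicate block was added to that fit, and 82 without the 2 arrays that stand apart; intensity trend with robust moderation, removal of dim probe sets, centring on brighter probe sets, quantile normalization, array weights and a replicate block over all arrays gave between 2322 and 2461 probe sets. Deviations from the group means did not correlate positively between arrays of the same replicate number (-0.22, -0.04, -0.48 and -0.08 for numbers 1 to 4). The highest correlation with another number was 0.48, 0.50, 0.57 and 0.07. Whether arrays were paired by sowing or batch is not settled by these values. With the replicate block over all arrays 2383 probe sets passed from 7 h to 13 h, 1892 from 3 h to 7 h, 1518 for the difference of intervals, 1678 against the endosperm and 926 against the radicle. In the same order, fits of only the arrays compared gave 665 (43.2% higher, against 52.4% with all arrays), 637, 363, 943 and 539, and a replicate block on those arrays gave 167, 152, 183, 751 and 480; fewer arrays estimate the spread in both. A change over 1 as well left 503. Leaving out the 2 arrays gave 2333 for the difference of intervals, 2936 against the endosperm and 1561 against the radicle, and array weights gave 2756 against the endosperm; the cause was not tested. Leaving out 1 array gave 1767 to 2821 from 7 h to 13 h, 1472 to 1949 from 3 h to 7 h, 1047 to 1887 for the difference of intervals, 1166 to 2364 against the endosperm and 729 to 1203 against the radicle. The 4 arrays of each group and levels near the dim limit bound what could be detected.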
